A study of Homo sapiens with 9 samples.

Results

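The genes of MHC class I peptide presentation were followed through oncogene-induced senescence in IMR90 ER:RAS fibroblasts. The list held 9 genes: the class I heavy chains HLA-B, HLA-C, HLA-E, HLA-F and HLA-G, the light chain B2M, the peptide transporter subunits TAP1 and TAP2, and the loading chaperone TAPBP (tapasin). A gene counted as measured where a probe set, the group of array probes summarised into 1 value, was annotated to its symbol and to no other. That held for 4 of the 9 genes, B2M, TAP1, TAP2 and TAPBP, which had 10 such probe sets among the 19460 on the array and were 4 of the 18417 genes tested. HLA-B was found in 6 probe sets that it shares with a second heavy chain, 3 with HLA-C and 3 with HLA-F, and these 6 are given as shared readings that belong to neither gene alone. No probe set carries the symbol HLA-E or HLA-G in the annotation used, so both are unnamed here.

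MHC class I molecules display fragments of a cell's own proteins on its surface for inspection by CD8 T cells and natural killer cells. Proteasomes cut the fragments in the cytosol, the transporter built from TAP1 and TAP2 pumps them into the endoplasmic reticulum, and tapasin holds an empty heavy chain and B2M pair at the transporter until a peptide fits. Most of these genes lie in the MHC on chromosome 6 and respond to interferons, and senescent cells are known targets of immune clearance.

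Each of the 3 groups held 3 arrays of total RNA from IMR90 cells, a human fetal lung fibroblast line that the labels spell IRM90. All of the cells carried ER:RAS, a fusion of oncogenic RAS with an oestrogen receptor domain that stays inactive until 4-hydroxytamoxifen (4OHT) is added. The non-senescent cells (vector-4OHT) carried an empty vector and were given no 4OHT. The senescent cells (vector+4OHT) carried the empty vector and were given 100 nM 4OHT. The knockdown cells (shARID1B+4OHT) carried a short hairpin RNA against ARID1B, which belongs to the SWI/SNF chromatin remodellers, and were given the same 4OHT. The labels give day 6 after 4OHT for every sample. The number of hairpins behind shARID1B is not stated in the labels. The control of these cells is an empty vector, and no group carried a control hairpin. Loss of ARID1B and other effects of carrying a hairpin therefore cannot be told apart here. The study describes the 3 samples of each group as biological replicates, while the labels do not say whether they are separate cultures, and the p-values speak of the spread among these samples. The senescence comparison (vector+4OHT minus vector-4OHT) and the knockdown comparison (shARID1B+4OHT minus vector+4OHT) share the 3 vector+4OHT arrays. No group was given 4OHT without ER:RAS. In the senescence comparison 4OHT itself, RAS activity and senescence therefore cannot be told apart, and its name stands for them together.

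Expression values are on the log2 scale, where a difference of 1 is a doubling, and a gene was called where its adjusted p (limma, Benjamini-Hochberg over all genes) was under 0.05. Array medians lay between 6.70 and 6.79. ARID1B stood at 8.63, 8.96 and 8.77 on the vector+4OHT arrays and at 8.07, 7.96 and 8.13 on the shARID1B+4OHT arrays, a log2 change of -0.735 (adjusted p = 0.000179). All 10 fibroblast markers had group means of 9.85 or higher. Of these, 8 were called lower in senescence, beside 17.6% of all genes. In knockdown 2 were called higher and 2 lower, beside 9.63% and 6.09% of all genes. The summed linear level of the fibroblast list was 35700 to 39200 in vector-4OHT, 29300 to 30600 in vector+4OHT and 29900 to 30800 in shARID1B+4OHT. Of the 9 leukocyte markers, 8 were measured, 6 of these had means below the all-probe-set median of 6.75 in every group, and the pan-leukocyte gene PTPRC lay between 3.90 and 4.07 on the 9 arrays. The summed linear level of the leukocyte list was nevertheless 2220 to 2430 in vector-4OHT, 2600 to 2770 in vector+4OHT and 3140 to 3540 in shARID1B+4OHT. CD68, a lysosomal protein of macrophages that other cells also make, was the only one of these markers called, at log2 changes of 0.29 in senescence and 0.345 in knockdown. The summed level of the endothelial list was 604 to 631, 558 to 608 and 635 to 643 in the same order of groups, with PECAM1 at 0.58 in senescence and -0.28 in knockdown and TEK at -0.30 and 0.45, all called. That of the epithelial list was 1370 to 1440, 1330 to 1530 and 1270 to 1380, with KRT8 called at -0.255 in senescence and CLDN4 at 0.38 in knockdown. The part of these markers in the other results was not tested. In bulk RNA, fewer cells of a type and less RNA per cell cannot be told apart.

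In senescent cells both subunits of the peptide transporter were higher. TAP1 rose 1.5-fold and TAP2 rose 1.33-fold, while B2M and TAPBP were not called. Thus 2 of the 4 measured genes were called higher, where 14.9% of all genes were, and 0 were called lower by limma, where 17.6% of all genes were. At an unadjusted p under 0.05 the number lower was also 0, and it was 0 by the methods' t-test. The median log2 change of the 4 genes was 0.19, beside -0.01 over all genes tested. Of the 6 shared heavy-chain probe sets 0 were called higher by limma, also at an unadjusted p under 0.05, where 14.2% of annotated probe sets were. These 6 are not independent measurements, so their number is not to be read against that share. The methods' t-test after adjustment called 1 of them, the first of HLA-F with HLA-B (adjusted p = 0.0463), and without adjustment the 3 of HLA-F with HLA-B.

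TAP1, a subunit of the peptide transporter, read 9.53, 9.42 and 9.78 on the vector-4OHT arrays and 10.09, 10.23 and 10.17 on the vector+4OHT arrays. It read 10.25, 10.21 and 10.26 on the shARID1B+4OHT arrays. Every 4OHT array lay above every array without 4OHT, and the arrays of the 2 groups with 4OHT overlapped. The group means were 9.57 ± 0.18 (SD, n = 3), 10.16 ± 0.070 (SD, n = 3) and 10.24 ± 0.024 (SD, n = 3). The senescence change was 0.59 (SE 0.0822, 95% interval 0.41 to 0.77, adjusted p = 0.000216). The knockdown change was 0.075 (95% interval -0.11 to 0.26, adjusted p = 0.591), so a further rise of up to 0.26 or a fall of 0.11 remains within the interval. TAP1 appears as 3 probe sets, but all 3 hold the same value on every array and count as 1 measurement.

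TAP2, the partner of TAP1 in the transporter, followed the same order. Its values were 8.01, 8.04 and 8.22 without 4OHT, 8.45, 8.54 and 8.52 in senescent cells, and 8.50, 8.61 and 8.50 in knockdown cells. The senescence change was 0.41 (SE 0.0643, 95% interval 0.27 to 0.55, adjusted p = 0.000485) and the groups did not overlap. The knockdown change was 0.035 (95% interval -0.11 to 0.18, adjusted p = 0.763). TAP2 has 3 probe sets with different values, and their senescence changes were 0.44, 0.41 and 0.41, all called. Across the 9 arrays TAP1 and TAP2 correlated at r = 0.98, a description over arrays that share the 3 groups.

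B2M, the light chain that every classical class I molecule needs, was called in no comparison. It read 11.61, 11.47 and 11.51 in vector-4OHT, 11.52, 11.40 and 11.60 in vector+4OHT, and 11.53, 11.50 and 11.52 in shARID1B+4OHT, and all of the groups overlapped. The intervals of its log2 change were -0.16 to 0.11 in senescence (adjusted p = 0.843) and -0.13 to 0.15 in knockdown (adjusted p = 0.933). As ratios these intervals run from 0.896 to 1.08 and from 0.916 to 1.11. The sign of B2M's change turned in senescence and in knockdown when single arrays were left out.

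**Figure D1:**
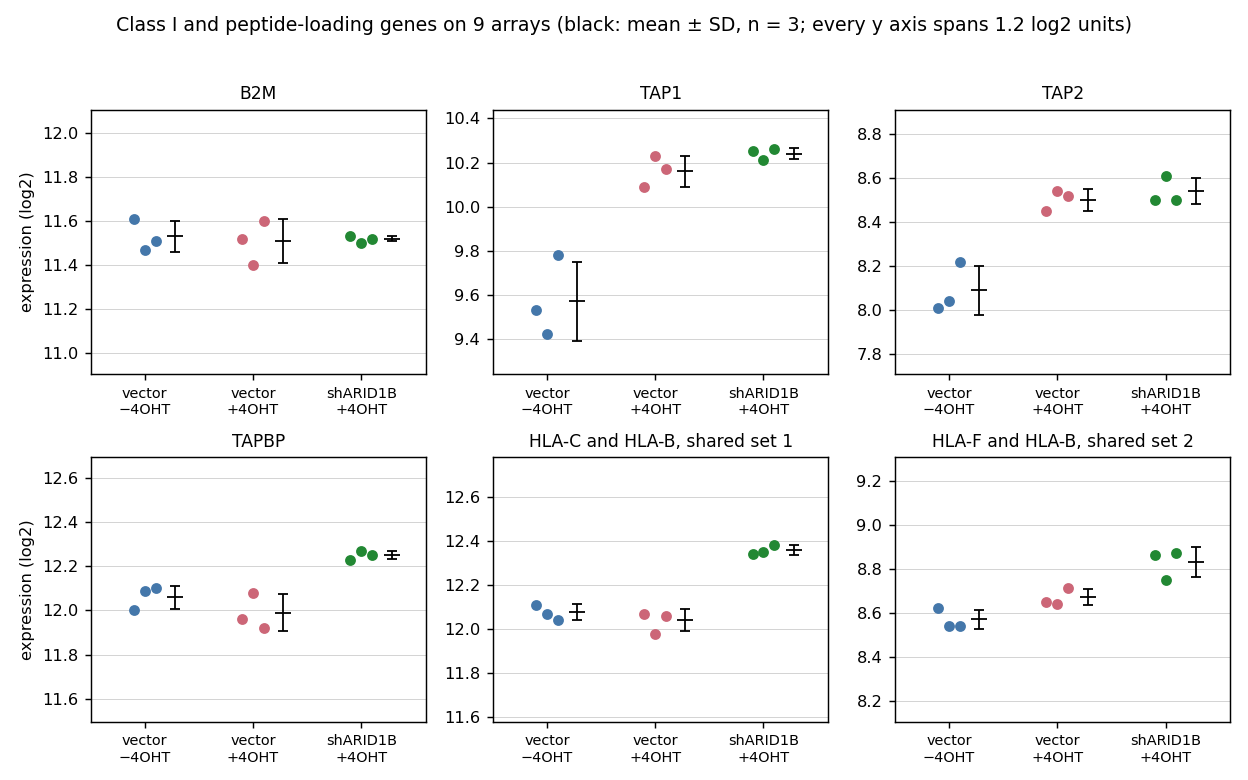
Log2 expression on each of the 9 arrays for the 4 measured genes and for 1 shared heavy-chain probe set of each kind; colours mark the 3 groups, points are arrays, black bars are the mean ± SD of 3 arrays, and every y axis spans 1.2 log2 units. TAP1 and TAP2 step up between vector-4OHT and vector+4OHT, TAPBP and the HLA-C and HLA-B reading step up between vector+4OHT and shARID1B+4OHT, and B2M stays between 11.40 and 11.61.

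With ARID1B knocked down, the loading chaperone and the HLA-C and HLA-B readings were higher. TAPBP rose 1.2-fold and the 3 probe sets shared by HLA-C and HLA-B rose 1.2- to 1.25-fold over senescent cells, while TAP1, TAP2 and B2M were not called. Of the 4 measured genes 1 was called higher, beside 9.63% of all genes, and 0 were called lower by limma, beside 6.09% of all genes. The number lower at an unadjusted p under 0.05 was 0, as it was by the methods' t-test. Of the 6 shared probe sets 3 were called higher, beside 9.16% of annotated probe sets. The 3 of each kind moved nearly in parallel over the arrays and are not independent measurements, so their number is not to be read against that share. The median of the 4 genes was 0.055, with -0.02 over all genes tested.

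TAPBP, which edits the peptide cargo and stabilises the transporter, read 12.0, 12.09 and 12.10 in vector-4OHT and 11.96, 12.08 and 11.92 in vector+4OHT, where the groups overlapped. It read 12.23, 12.27 and 12.25 in shARID1B+4OHT, above all 6 vector arrays. The senescence change was -0.075 (95% interval -0.20 to 0.05, adjusted p = 0.373). The knockdown change was 0.26 (SE 0.0554, 95% interval 0.14 to 0.39, adjusted p = 0.00873). Its 3 probe sets gave knockdown changes of 0.21, 0.26 and 0.26 (adjusted p = 0.0159, 0.013 and 0.00912 with every probe set fitted on its own). After Benjamini-Hochberg adjustment the methods' t-test did not call it (adjusted p = 0.064).

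The heavy chains were read through probe sets that HLA-B shares. The first of the 3 shared by HLA-C and HLA-B read 12.11, 12.07 and 12.04 in vector-4OHT, 12.07, 11.98 and 12.06 in vector+4OHT, and 12.34, 12.35 and 12.38 in shARID1B+4OHT. The vector groups overlapped, and every knockdown array stood above them. The 3 probe sets changed by -0.04, -0.02 and -0.01 in senescence (adjusted p = 0.628, 0.857 and 0.943). In knockdown they changed by 0.32, 0.29 and 0.26 (adjusted p = 0.00145, 0.00185 and 0.00453). HLA-B and HLA-C, whose products are the classical ligands of CD8 T cells and of killer cell receptors, cannot be separated in these readings, and class I genes are alike enough that other heavy chains may add to them, which was not tested.

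The 3 probe sets shared by HLA-F and HLA-B were called higher between non-senescent and knockdown cells, and in neither step alone by limma. HLA-F is a nonclassical heavy chain recognised by natural killer cell receptors. The second of the 3 read 8.62, 8.54 and 8.54 in vector-4OHT, 8.65, 8.64 and 8.71 in vector+4OHT, and 8.86, 8.75 and 8.87 in shARID1B+4OHT, with no overlap between groups. Over the 3 probe sets the changes were 0.10, 0.10 and 0.10 in senescence (adjusted p = 0.186, 0.184 and 0.191) and 0.16, 0.16 and 0.16 in knockdown (adjusted p = 0.0771, 0.0611 and 0.0768). Without shARID1B+4OHT replicate 2 the first and second of them were called in knockdown (adjusted p = 0.0382 and 0.0498).

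Set against non-senescent cells, the knockdown cells had higher readings of the transporter, the chaperone and the heavy chains. TAP1 stood 0.66 above vector-4OHT (1.59-fold, adjusted p = 9.72e-05), TAP2 0.45 (1.36-fold, adjusted p = 0.000294) and TAPBP 0.19 (1.14-fold, adjusted p = 0.0237). B2M differed by -0.01 (95% interval -0.15 to 0.12, adjusted p = 0.905). So 3 of the 4 measured genes were called higher, where 15.6% of all genes were, and 0 were called lower by limma, at an unadjusted p under 0.05 or by the methods' t-test, where limma called 15.9% of all genes. The 6 shared probe sets were all called higher, at 0.25 to 0.28 for those of HLA-C with HLA-B and 0.26 for each of those of HLA-F with HLA-B, where 14.9% of annotated probe sets were. As they are not independent measurements, their number is again not to be read against that share. The TAPBP call was lost without vector-4OHT replicate 1 (adjusted p = 0.0795) and without shARID1B+4OHT replicate 1, 2 or 3 (adjusted p = 0.0506, 0.0789 and 0.0657), and the number of genes called higher was then 2.

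**Figure D2:**
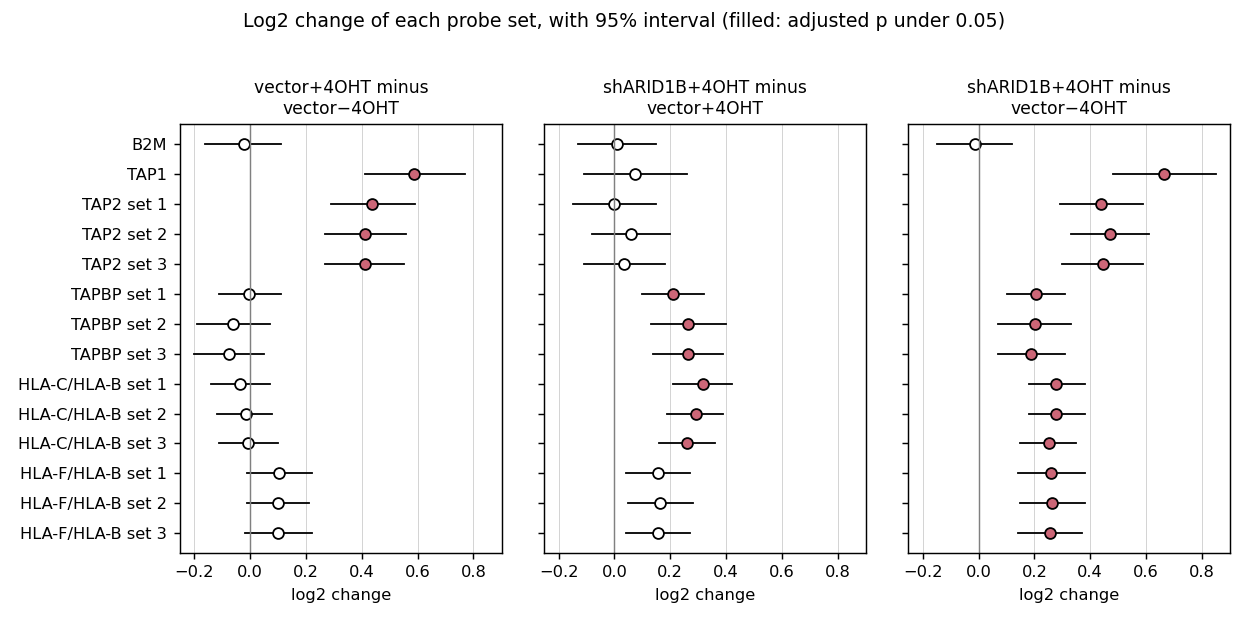
Log2 change of each probe set in the 3 comparisons, with 95% intervals as lines; filled points have an adjusted p under 0.05, and the identical TAP1 probe sets are drawn once. TAP1 and TAP2 are filled in senescence at 0.41 to 0.59, TAPBP and the HLA-C/HLA-B probe sets are filled in knockdown at 0.21 to 0.32, and every row but B2M is filled when knockdown cells are set against non-senescent cells.

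The promoters of the 4 measured genes are shown because these genes are all known to respond to interferon, and TAP1 and TAP2 were called in senescence, TAPBP in knockdown and B2M in no comparison. Each window runs from 250 bases before to 50 after the RefSeq start of the gene on GRCh38.p14, written in the direction of the gene: B2M at chr15:44711267-44711566 on the plus strand, TAP1 at chr6:32853655-32853954, TAP2 at chr6:32838690-32838989 and TAPBP at chr6:33314029-33314328, these 3 on the minus strand. Capitals mark the core of the interferon-stimulated response element, GAAANNGAA on either strand, where N is any base.
B2M: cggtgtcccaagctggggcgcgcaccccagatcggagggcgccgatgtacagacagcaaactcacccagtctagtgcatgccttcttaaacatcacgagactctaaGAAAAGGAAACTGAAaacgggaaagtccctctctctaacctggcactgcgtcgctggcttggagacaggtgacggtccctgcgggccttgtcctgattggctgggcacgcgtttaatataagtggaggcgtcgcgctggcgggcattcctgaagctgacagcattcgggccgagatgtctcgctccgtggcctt
TAP1: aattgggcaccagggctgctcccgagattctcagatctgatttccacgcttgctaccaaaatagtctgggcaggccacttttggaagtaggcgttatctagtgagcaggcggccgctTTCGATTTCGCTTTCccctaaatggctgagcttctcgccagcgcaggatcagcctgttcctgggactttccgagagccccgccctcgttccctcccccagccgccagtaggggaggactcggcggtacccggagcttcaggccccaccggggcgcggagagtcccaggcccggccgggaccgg
TAP2: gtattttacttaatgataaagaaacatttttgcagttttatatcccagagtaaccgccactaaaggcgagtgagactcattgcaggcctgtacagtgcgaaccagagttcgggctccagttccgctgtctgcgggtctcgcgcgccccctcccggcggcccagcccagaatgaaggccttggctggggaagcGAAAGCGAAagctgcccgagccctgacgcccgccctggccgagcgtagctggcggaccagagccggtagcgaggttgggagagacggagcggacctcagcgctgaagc
TAPBP: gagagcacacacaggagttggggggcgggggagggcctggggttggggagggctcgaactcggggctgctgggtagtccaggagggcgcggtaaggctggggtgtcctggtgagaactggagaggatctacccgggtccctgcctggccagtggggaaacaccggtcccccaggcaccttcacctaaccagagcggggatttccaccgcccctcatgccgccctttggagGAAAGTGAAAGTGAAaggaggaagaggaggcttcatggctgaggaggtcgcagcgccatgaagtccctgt
That core was found in all 4 windows, in the HLA-F window (155 before the start, other strand) and in 8.11% of the 35116 promoter windows of the same length, and had no match in those of HLA-B, HLA-C, HLA-G, PSMB8 or PSMB9. It occurs as a pair of copies that overlap by 3 bases in B2M (first base 144 before the start), in TAP1 on the other strand (133 before) and in TAPBP (20 before), and as 1 copy in TAP2 (58 before). The motif was thus found in B2M, which was not called, and in TAP1, TAP2 and TAPBP, which were. The PSMB9 window shares 13 bases with the TAP1 window and stops short of the TAP1 copies, which lie between the starts of both genes. Variants of the core were not searched. In the HLA-B and HLA-C windows ttcacttct follows gagt, where HLA-F has its match. A kappa-B motif, GGGNNTTCC, present in 6.58% of windows on either strand, was found in TAPBP (first base 55 before the start), in B2M (4 before) and in HLA-B (177 before). It had no match in the TAP1 or TAP2 window, but these 9 letters leave out forms that are 1 base longer. The TAP1 window holds gggactttcc, and the B2M window holds it on the other strand. No match therefore does not mean that a kappa-B site is absent. The CRE-like motif TGACG (24.6% of windows) was found in B2M, TAP2, HLA-B, HLA-C, PSMB8 and PSMB9. The letters CCAAT (34.6%) were found in B2M, TAP1, HLA-B, HLA-C, HLA-F and PSMB9. These are matches of letters and not measured binding sites. For the named genes only the window at the outermost start was searched, and HLA-E had no such window. No match in HLA-G speaks of that window alone.

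Next to TAP1, PSMB9 changed in the opposite direction in senescence. In the RefSeq order no other protein-coding gene lies between PSMB9 and TAP1, between TAP1 and PSMB8, or between PSMB8 and TAP2, and PSMB9 and TAP1 start 488 bases apart on opposite strands. PSMB8 and PSMB9 encode catalytic subunits of the immunoproteasome, the form that favours peptides fit for class I. PSMB9 read 7.91, 7.89 and 7.89 in vector-4OHT, 7.54, 7.15 and 7.38 in vector+4OHT, and 8.04, 7.98 and 8.02 in shARID1B+4OHT. The senescent arrays were the lowest and the knockdown arrays the highest, with no overlap. PSMB9 therefore fell by 0.54 in senescence (adjusted p = 0.000411), where TAP1 rose, and rose by 0.66 in knockdown (adjusted p = 0.000419), where TAP1 was not called. The knockdown change of PSMB9 was not called by the methods' t-test after adjustment (adjusted p = 0.0551). Between knockdown and non-senescent cells PSMB9 differed by 0.12 (adjusted p = 0.333). PSMB8 averaged 7.63 ± 0.14 (SD, n = 3), 7.63 ± 0.11 (SD, n = 3) and 7.88 ± 0.018 (SD, n = 3) in the same order of groups. Its knockdown change of 0.25 (adjusted p = 0.0461) was not called without vector-4OHT replicate 1 or 3 (adjusted p = 0.0534 and 0.053), without vector+4OHT replicate 1 or 2 (0.133 and 0.139) or without any one of the 3 shARID1B+4OHT arrays (0.102 to 0.134). Nor was it called by the methods' t-test after adjustment (adjusted p = 0.112).

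**Figure D3:**
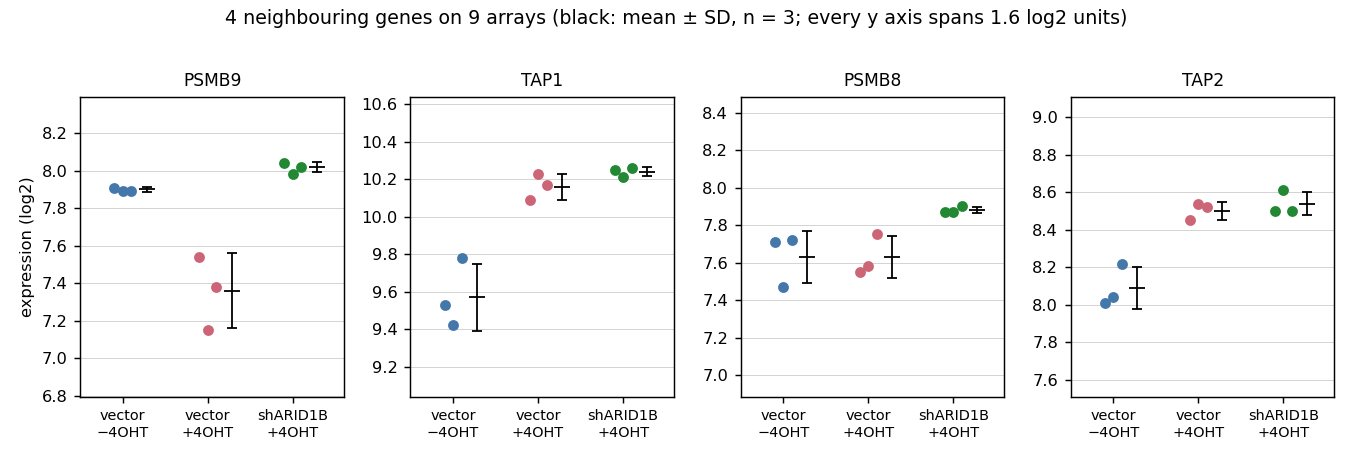
Log2 expression on the 9 arrays for 4 neighbouring MHC genes in their order along the chromosome; points are arrays coloured by group, black bars are the mean ± SD of 3 arrays, and every y axis spans 1.6 log2 units. PSMB9 is lowest on the vector+4OHT arrays (7.15 to 7.54), on which TAP1 and TAP2 stand above their vector-4OHT values.

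The wider pathway was read from 59 genes in 6 lists, of which 52 were measured. In senescence 15 of the 52 were called higher and 12 lower, beside 14.9% and 17.6% of all genes, and their median log2 change was 0.03, beside -0.01. In knockdown 14 were called higher and 0 lower by limma, beside 9.63% and 6.09% of all genes, with a median of 0.055, beside -0.02. At an unadjusted p under 0.05 limma counted 19 higher and 3 lower, and the methods' t-test after adjustment counted 5 higher and 0 lower. Without vector+4OHT replicate 2 the number higher in knockdown was 9, and 1 gene was lower there as well as without vector-4OHT replicate 1 or 3. Against non-senescent cells 19 were called higher and 6 lower in knockdown cells, beside 15.6% and 15.9% of all genes.

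Of the 9 proteasome genes, 3 rose and 2 fell in senescence, beside 14.9% and 17.6% of all genes, and 5 rose in knockdown, beside 9.63%. The methods' t-test after adjustment called 2 of the 9 in knockdown. The list also holds PSMB5, PSMB6 and PSMB7, subunits of the standard proteasome. PSMB5 and PSMB7 were among those that rose in senescence (0.32 and 0.30), and PSMB6 among those that rose in knockdown (0.24). PSMB10, a further immunoproteasome subunit, changed by 0.15 in senescence and -0.17 in knockdown and was called in neither (adjusted p = 0.172 and 0.159). These were named after their values were seen. PSME1 and PSME2 encode the PA28 cap that opens the proteasome for short products. PSME1 averaged 10.64 ± 0.087 (SD, n = 3), 10.25 ± 0.040 (SD, n = 3) and 10.60 ± 0.043 (SD, n = 3), so it fell by 0.40 in senescence (adjusted p = 0.000246) and rose by 0.35 in knockdown (adjusted p = 0.002). PSME2 went up at both steps, from 10.42 ± 0.029 (SD, n = 3) by 0.24 (adjusted p = 0.00422) and again by 0.35 (adjusted p = 0.00122). The number called in knockdown was 3 without vector+4OHT replicate 2 and without shARID1B+4OHT replicate 1, 2 or 3.

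Of the 7 measured genes of folding, trimming and loading, 1 rose and 2 fell in senescence, and 1 rose in knockdown, counts near those that the shares over all genes give (14.9% and 17.6% in senescence, 9.63% in knockdown). TAPBPL, the tapasin relative TAPBPR that also exchanges peptides, fell by 0.45 in senescence (adjusted p = 0.000185) and rose by 0.33 in knockdown (adjusted p = 0.00483). Its homologue TAPBP was called in knockdown alone of these 2 steps, and the difference between the genes was not tested. TAPBPL was not called in knockdown by the methods' t-test after adjustment (adjusted p = 0.0668). ERAP1, the aminopeptidase that trims peptides in the endoplasmic reticulum, read 9.75, 9.74 and 9.73 in vector-4OHT and 8.84, 9.21 and 9.34 in vector+4OHT, a fall of 0.61 on the log2 scale (adjusted p = 0.00071). The methods' t-test after adjustment did not call that fall (adjusted p = 0.0634). On the knockdown arrays ERAP1 read 9.48, 9.47 and 9.43, a change of 0.33 that missed the threshold (adjusted p = 0.0512). Without vector+4OHT replicate 1, its lowest array, that change was 0.19 and was called (adjusted p = 0.049), and without vector+4OHT replicate 3 it was 0.43 (adjusted p = 0.0122).

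Among the 14 measured transcription regulators, 4 rose and 2 fell in senescence, beside 14.9% and 17.6% of all genes, and 3 rose in knockdown, beside 9.63%. NLRC5, the transactivator of class I promoters, lay between 7.35 and 7.44 on all 9 arrays and was called in neither step (adjusted p = 0.655 and 0.561). NFKB1, a subunit of NF-kappa-B, rose by 0.58 in senescence (adjusted p = 0.000146) and changed by 0.10 in knockdown (adjusted p = 0.421). IRF1, an activator of interferon-responsive class I genes, rose by 0.33 in senescence (adjusted p = 0.00144). Its knockdown change was 0.22 (adjusted p = 0.0321), which was not called without vector+4OHT replicate 1 or 2 (adjusted p = 0.091 and 0.0854) or without shARID1B+4OHT replicate 1, 2 or 3 (0.0934, 0.102 and 0.0752). By the methods' t-test after adjustment it was not called either (adjusted p = 0.0773). IRF2, which binds the same sites, read 10.45, 10.58 and 10.35 in vector-4OHT, 9.97, 10.09 and 10.05 in vector+4OHT, and 10.64, 10.69 and 10.66 in shARID1B+4OHT. It fell by 0.42 in senescence (adjusted p = 0.00037) and rose by 0.63 in knockdown (adjusted p = 0.000109). IRF9, the DNA-binding part of the type I interferon factor, was not called in senescence (adjusted p = 0.374) and rose by 0.39 in knockdown (adjusted p = 0.00525), a call that the methods' t-test did not make after adjustment (adjusted p = 0.0954).

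Of the 11 genes of interferon ligands, receptors and signalling, all measured, 6 rose and 2 fell in senescence, beside 14.9% and 17.6% of all genes, and 2 rose in knockdown, beside 9.63%. The number called in knockdown was 1 without vector+4OHT replicate 1 or 2 and without shARID1B+4OHT replicate 2 or 3. IFNAR2, a chain of the type I receptor, rose by 0.66 (adjusted p = 5.79e-05) and IFNGR2, a chain of the interferon-gamma receptor, by 0.45 (adjusted p = 2.25e-05). SOCS1, which silences JAK signalling, fell by 1.18 on the log2 scale (adjusted p = 4.79e-07). SOCS3, a related inhibitor named after its values were seen, rose by 0.52 in senescence (adjusted p = 0.000494). JAK2, a kinase of the interferon-gamma receptor, read 8.24, 8.24 and 8.21 in vector-4OHT, 7.62, 7.87 and 8.08 in vector+4OHT, and 8.68, 8.74 and 8.57 in shARID1B+4OHT. It fell by 0.37 in senescence (adjusted p = 0.0119) and rose by 0.81 in knockdown (adjusted p = 0.000321), and the methods' t-test called neither after adjustment (adjusted p = 0.15 and 0.0553). IFNAR2 rose by 0.29 in knockdown (adjusted p = 0.0258), which was not called without vector+4OHT replicate 1 or 2 (adjusted p = 0.0812 and 0.0883) or without shARID1B+4OHT replicate 2 or 3 (0.108 and 0.0761). Nor was that rise called by the methods' t-test after adjustment (adjusted p = 0.105). The ligands IFNB1 and IFNG, picked for mention after their values were seen, read 3.56 to 4.04 and 3.88 to 4.05 on the 9 arrays, below the all-probe-set median, and were called in neither step.

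Of the 4 measured class I-like molecules, 3 fell and 0 rose in senescence, beside 17.6% and 14.9% of all genes, and 1 rose in knockdown, beside 9.63%. MR1, which shows microbial vitamin metabolites to mucosal T cells, fell by 0.72 in senescence (adjusted p = 5.75e-06) and rose by 0.44 in knockdown (adjusted p = 0.000805), to a level still 0.28 lower on the log2 scale than in non-senescent cells (adjusted p = 0.00514). HFE, a regulator of iron uptake, fell by 0.53 (adjusted p = 0.000135), and FCGRT, the neonatal Fc receptor, fell by 0.205 (adjusted p = 0.00521). Neither HFE nor FCGRT was called in knockdown (adjusted p = 0.589 and 0.398). All 3 are known to use B2M as their light chain, and B2M was not called on the same arrays.

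The class II pathway presents material taken up from outside. Of its 7 measured genes 1 rose and 1 fell in senescence, near the shares of all genes (14.9% and 17.6%), and 2 rose in knockdown, beside 9.63%. CTSS, the lysosomal protease that trims the invariant chain, rose by 1.93 in senescence (adjusted p = 7.04e-07), from 5.47 ± 0.24 (SD, n = 3) to 7.40 ± 0.21 (SD, n = 3), with a starting level below the all-probe-set median. Its knockdown change of -0.41 (adjusted p = 0.0501) lay at the threshold and was called in 8 of 17 alternatives. HLA-DMA, a subunit of the class II peptide exchanger, fell by 1.16 in senescence (adjusted p = 1.69e-07) and rose by 0.37 in knockdown (adjusted p = 0.0027). HLA-DMB, the other subunit, was not called in senescence (adjusted p = 0.373). Its knockdown change was 0.58 (adjusted p = 0.0176), with 1 knockdown array at 7.92 and the others at 7.27 and 7.39. It was not called without vector+4OHT replicate 2 or 3 (adjusted p = 0.0656 and 0.0527) or with only the 6 arrays compared (0.054). The methods' t-test after adjustment did not call it either (adjusted p = 0.212).

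**Figure D4:**
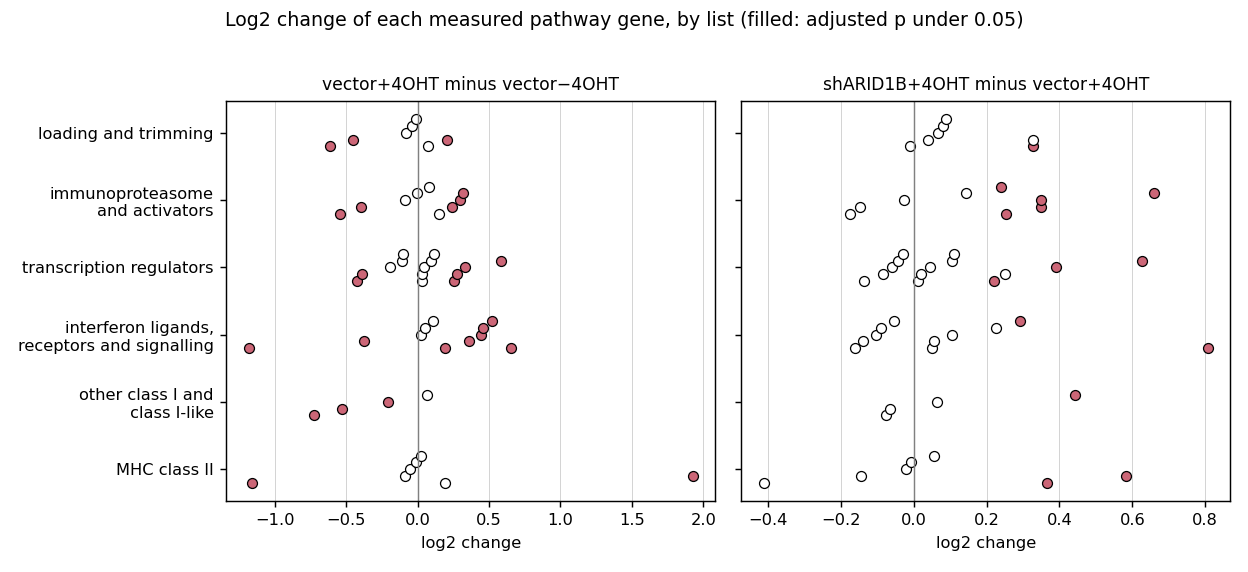
Log2 change of each of the 52 measured pathway genes in senescence and in knockdown, by list; points are genes, filled where the adjusted p was under 0.05, and the vertical offset within a list only separates points. Filled points lie on both sides of 0 in senescence (15 higher, 12 lower) and on the higher side alone in knockdown (14 higher, 0 lower).

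The genes with the profile most like the mean of the 4 measured genes, each centred on its own mean, were found among 11894 other genes with an SD of at least 0.1 over the 9 arrays. They were MAP3K4 (r = 0.996), RGL2 (r = 0.992), STK24 (r = 0.992), LAMB1 (r = 0.989) and COL4A5 (r = 0.987), all over 9 arrays that share the 3 groups. They were chosen for following a profile that is higher with 4OHT and highest in knockdown cells. Their changes of 0.28 to 0.48 in senescence and 0.12 to 0.19 in knockdown are therefore a description fixed by that choice. RGL2, an effector of RAS-like GTPases, is also the protein-coding neighbour of TAPBP in the RefSeq order. Its changes were 0.48 in senescence and 0.14 in knockdown, beside -0.075 and 0.26 for TAPBP. Within the 4 genes, B2M correlated with the other 3 at -0.15 to -0.34, and TAPBP with TAP1 and TAP2 at 0.34 and 0.33.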

How the data were processed

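Total RNA of 9 samples was hybridised to Affymetrix whole-transcript gene arrays. The deposited values are log2 expression, 1 per probe set and array, and the submitters' processing notes list RMA, which corrects background, quantile-normalises and summarises probes, beside oligo and limma (no version given in the sources). The labels' extraction text names an Illumina library kit, whereas the labelling text and file content are those of arrays. The table held 33297 probe sets, of which 19460 carried exactly 1 gene symbol in GEO's platform annotation, 1754 several and 12083 none, and 19429 of the 19460 matched the RefSeq table of GRCh38.p14, used for names and gene order. Where a gene had more than 1 such probe set (769 genes), the one with the highest mean stood for it, which gave 18417 genes. The shared heavy-chain probe sets were fitted among all 21214 annotated probe sets.

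All 9 arrays were fitted in limma 3.58.1 under R 4.3.3 (lmFit, eBayes, 2-sided) on group alone, with Benjamini-Hochberg adjustment within each comparison, after a check on simulated data. Intervals are 95% and unadjusted. An exact permutation test of 3 against 3 arrays cannot go below p = 0.1. Residual degrees of freedom were 6, or 10.45 after adding the prior, so precision is limited by how few arrays there are. The methods' t-test is a 2-tailed test of the 6 arrays compared. The members, gene lists and naming rule were chosen with earlier results of these data known. Named were the members, ARID1B, per list the 2 genes with the smallest p in senescence and in knockdown, a few set regulators (NLRC5, IRF1, PSMB8 and PSMB9), and the 5 genes of the most similar profile. Listed genes without a single-symbol probe set here are left out. Of the 7 endothelial markers 5 lay below 6.75 in each group, as did 3 or 4 of the 7 epithelial ones. Alternatives for the shared probe sets were chosen after seeing the annotation. Promoters are RefSeq windows of GRCh38.p14.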

Additional observations from a re-analysis of the deposited data

How the results depend on the processing

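The 17 alternatives were a replicate block, only the 6 arrays compared, no dim genes, probe sets averaged per gene, subtracted array medians, an intensity trend, the methods' t-test with and without adjustment, and each array left out, with every single-symbol probe set as a further one for counts. Under all 17, TAP1 stayed called in senescence (0.51 to 0.69) and TAP2 (0.37 to 0.48), and under all 16 run for them the 3 HLA-C and HLA-B probe sets stayed called in knockdown (0.23 to 0.34). With every single-symbol probe set the members called higher numbered 6 in senescence, 3 in knockdown and 9 against non-senescent cells, as TAP1, TAP2 and TAPBP have 3 probe sets each. The methods' t-test after adjustment gave 3737 genes called in senescence, 1446 in knockdown, 0 members higher in knockdown and 5 pathway genes higher in knockdown, and the cause was not tested. Leaving out single arrays gave 1801 to 2817 genes called in knockdown (2895 with all), 9 to 15 pathway genes higher and 0 to 1 lower, with 1801 genes without shARID1B+4OHT replicate 2. Pathway genes called lower in knockdown were 1 with the 6 arrays, 2 without dim genes, 1 with the mean of probe sets, 1 with the trend and 5 by the unadjusted t-test.

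Values near 0 changed sign. With array medians subtracted, B2M was 0.012 in senescence and 0.048 against non-senescent cells, PSMB8 0.031 in senescence, PSME1 0.014 and NLRC5 0.05 against non-senescent cells, and HLA-C and HLA-B probe sets 2 and 3 were 0.019 and 0.028 in senescence. With single arrays left out, B2M ran from -0.07 to 0.033 in senescence, -0.045 to 0.058 in knockdown and -0.042 to 0.027 against non-senescent cells, PSMB8 from -0.083 to 0.038 in senescence, NLRC5 from -0.026 to 0.006 against non-senescent cells, and the 2 probe sets from -0.033 to 0.005 and -0.023 to 0.019.

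Same-numbered arrays of different groups deviated together at r = -0.26 to 0.32 over 9 pairs, beside -0.33 to 0.34 over 18 pairs of different numbers, so the numbers were not taken as pairs. With the replicate number as a block, 5658, 2498 and 5437 genes were called in the 3 comparisons (5996, 2895 and 5800 without it), members called higher were 2, 1 and 3 as without it, and IRF1 was not called in knockdown (adjusted p = 0.0511).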
